A study of Mus musculus with 3 samples.

Results

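Complex I, the NADH dehydrogenase of the mitochondrial respiratory chain, was followed through the genes whose symbols start with Nduf, in RNA from mouse peritoneal macrophages. There are 34 such genes among the 20574 gene symbols of each deposited table. They comprise 28 subunits, 4 assembly factors of the Ndufaf series, and Ndufa4 and Ndufa4l2, which keep the Nduf name but are counted apart because Ndufa4 is now placed with complex IV. The lists used here hold 37 nuclear subunits in all, and the other 9 were not analysed here. The study set 2 exposures against no treatment, with 1 library in each of 3 groups. Primary macrophages, labelled WT, received 5 apoptotic cells per macrophage for 5 h, or LPS, the endotoxin of bacterial walls, at 100 ng/ml for 5 h, or were untreated. All were grown in DMEM, and apoptotic cells that had not been engulfed were rinsed away. The labels give no time for the untreated cells and do not say what the apoptotic cells were, and they state no strain, sex or age. Exposure cannot be told apart from time in culture or handling. The series title ties the engulfment of dying cells to the oxidation of fatty acids and to electron transport in mitochondria, which is the question these genes bear on.

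Complex I takes electrons from NADH, passes them along a chain of iron-sulfur clusters to ubiquinone, and pumps protons across the inner mitochondrial membrane. It is L-shaped. The matrix arm consists of the N module, where NADH is oxidised, and the Q module, where ubiquinone is reduced, and the membrane arm has a proximal and a distal part that pump protons. Core subunits carry the chemistry, supernumerary subunits surround them, and assembly factors help to build the arms but are not part of the finished enzyme. In macrophages the complex feeds the respiratory chain with electrons from fatty acid oxidation and the TCA cycle, and it can also produce reactive oxygen species.

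Values were taken as FPKM, a unit that no label or header states. FPKM are fragments scaled to 1000 bases of transcript and to 1000000 mapped fragments, so on that reading levels can be compared between genes. The libraries summed to 197222 FPKM with apoptotic cells, 200224 with LPS and 199881 without treatment. Depth is not stated. The steps between the smallest values imply that 1 FPKM on each 1000 bases of transcript, counted beyond an offset of 250 bases, stands for about 3.23 reads with apoptotic cells, 2.94 reads with LPS and 3.28 reads without treatment. Subunits above 0 then rest on about 28.5 to 243 reads with apoptotic cells, 22.3 to 149 reads with LPS and 27.8 to 137 reads without treatment. These are estimates, and errors given from them cover counting only. With 1 library in each group there is no p-value, and every difference is between libraries. As these are bulk samples, fewer cells of a type and less RNA per cell cannot be told apart.

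A listed 0 was frequent, its cause is not known, and it was not taken as absence. Of the 28 subunits, 6 were listed at 0 with apoptotic cells, 4 with LPS and 9 in the untreated library, although each was well above 0 in another library. Among the 19 subunits above 0 in both treated libraries, 6 were listed at 0 without treatment (31.6%), against 38.6% of all genes that were above 0 in both treated libraries. The corresponding counts were 3 of 16 subunits for apoptotic cells (18.8%, with 18.6% of all genes) and 2 of 15 for LPS (13.3%, with 21.9% of all genes). Exons that share bases with another gene were found in 3 of the 13 subunits with no listed 0, in 6 of the 11 with 1 and in 3 of the 4 with 2. The share of all genes with such overlaps was not computed, and the part of overlaps in the zeros was not tested. Because of the zeros, ratios were formed only between values above 0. They are given as log2((FPKM + 1)/(FPKM + 1)), which understates differences of low genes, by more the lower they are.

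The central pattern was in the 13 subunits above 0 in all 3 libraries: 13 of 13 had their highest value with apoptotic cells. Of the 2891 genes above 0 in all 3 libraries and averaging 1 FPKM or more, 35.2% were highest there, 16.1% with LPS and 48.7% without treatment. The lowest value was with LPS for 6 subunits and without treatment for 7. Summed over the 13, the subunits had 1069 FPKM with apoptotic cells, 693 with LPS and 648 without treatment. The deposited scale matters for this count: with median-of-ratios scaling 11 of 13 were highest with apoptotic cells and 2 with LPS, while upper-quartile scaling placed 12 highest with apoptotic cells and 1 with LPS.

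**Figure D1:**
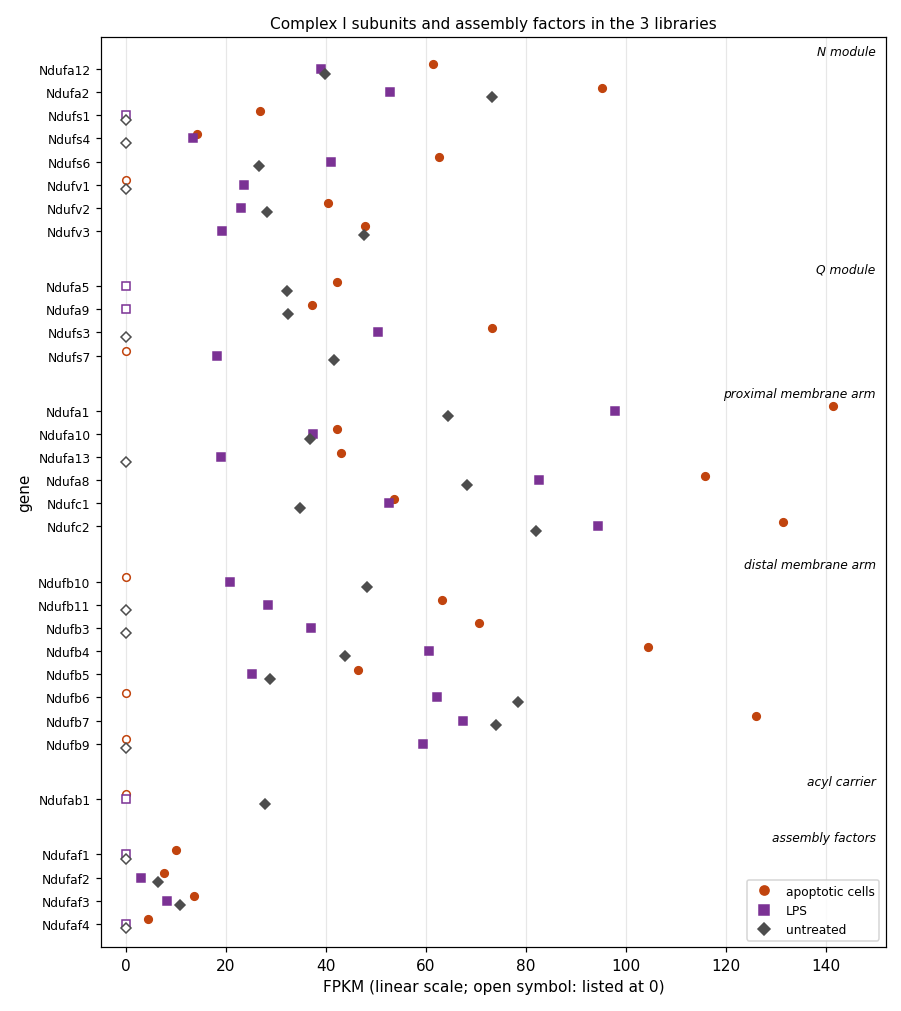
FPKM (linear x axis) of complex I subunits (all but 1) and Ndufaf assembly factors, grouped by structural module, in the apoptotic-cell (circle), LPS (square) and untreated (diamond) libraries, 1 library each. Open symbols mark a listed 0. Wherever a subunit has 3 filled symbols, the circle lies farthest to the right, up to 141 FPKM for Ndufa1.

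The first comparison asks how macrophages that engulfed apoptotic cells differed from untreated macrophages. All 15 subunits above 0 in both libraries had a ratio above 0 with apoptotic cells, where 44.5% of 3369 genes did. Their median log2 ratio was 0.62 (95% interval over genes 0.38 to 0.76), against -0.13 for all genes. Of the 15, 3 were at least 2-fold higher (12.4% of all genes were) and 0 were at least 2-fold lower (16.4% of all genes were). None had a ratio below 0 (55.4% of all genes had). Each of the 15 also had a ratio above 0 under every other scaling and pseudocount tried, although that of Ndufv3 was 0.01. The higher values were spread over many subunits, most of them by less than 2-fold.

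The subunits at least 2-fold higher were Ndufb4, Ndufs6 and Ndufa1. Ndufb4, a supernumerary subunit of the distal membrane arm, had 104.5 FPKM with apoptotic cells, 60.5 with LPS and 43.9 without treatment. Its log2 ratio of apoptotic cells over untreated was 1.23, with a counting error of about 0.17 (SE). Ndufs6, a zinc-binding subunit of the N module added late in assembly, had 62.6 FPKM with apoptotic cells, 40.9 with LPS and 26.6 without treatment, a log2 ratio of 1.20 (SE about 0.33). Ndufa1, an X-linked membrane-spanning subunit needed to build the membrane arm, had 141 FPKM with apoptotic cells, 97.9 with LPS and 64.4 without treatment, a log2 ratio of 1.12 (SE about 0.29). All 3 were highest with apoptotic cells, intermediate with LPS and lowest without treatment.

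Near-identical copies limit some of these values. Ndufb4 has a processed copy, Ndufb4c, identical over 390 bases, and Ndufs6 has Ndufs6b, 95.8% identical over 287 bases. Ndufa12, Ndufab1, Ndufb3, Ndufb11 and Ndufs3 have such copies too, so reads of these genes may be split or shared. No copy of Ndufa1 met the limit of 95% identity over 200 bases. The exons of Ndufs6 also share bases with those of Mrpl36 on the opposite strand, which had 34.1 FPKM with apoptotic cells, 26.1 with LPS and 22.0 without treatment. Ndufb5 and Mrpl47 overlap likewise, with 8.43 FPKM of Mrpl47 with apoptotic cells, 2.51 with LPS and 9.86 without treatment. No source used here states whether the counting used strand.

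The sequences before the transcription starts of these 3 genes are shown because they head the comparison, together with that of Ndufv3, whose values with apoptotic cells and without treatment were nearly equal. They are the 250 bases before each start, 5′ to 3′ on the gene's strand, from RefSeq on GRCm38.p6, the build also called mm10. Ndufb4 lies at chr16:37654369-37654618 (minus strand), Ndufs6 at chr13:73328483-73328732 (minus strand), Ndufa1 at chrX:37191239-37191488 (minus strand) and Ndufv3 at chr17:31519865-31520114 (plus strand). Capitals mark matches to GCGCANGCG, the core of the NRF1 motif, or to AAGGTCA, a core bound by nuclear receptors such as ERR alpha, on either strand.
Ndufb4: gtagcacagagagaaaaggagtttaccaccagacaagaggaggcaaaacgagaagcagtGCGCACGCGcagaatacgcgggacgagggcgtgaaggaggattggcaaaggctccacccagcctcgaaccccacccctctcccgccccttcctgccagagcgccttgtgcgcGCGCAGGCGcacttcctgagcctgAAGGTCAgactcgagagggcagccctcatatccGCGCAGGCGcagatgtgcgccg
Ndufs6: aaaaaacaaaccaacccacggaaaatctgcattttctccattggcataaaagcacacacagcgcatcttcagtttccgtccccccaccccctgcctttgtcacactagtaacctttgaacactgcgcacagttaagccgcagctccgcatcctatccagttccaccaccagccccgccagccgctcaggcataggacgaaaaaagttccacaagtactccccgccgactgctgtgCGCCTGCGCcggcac
Ndufa1: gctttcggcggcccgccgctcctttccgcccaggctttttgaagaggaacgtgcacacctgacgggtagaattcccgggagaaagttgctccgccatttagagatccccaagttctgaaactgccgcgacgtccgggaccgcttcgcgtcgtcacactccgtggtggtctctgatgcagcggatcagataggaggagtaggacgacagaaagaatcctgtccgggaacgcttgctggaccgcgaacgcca
Ndufv3: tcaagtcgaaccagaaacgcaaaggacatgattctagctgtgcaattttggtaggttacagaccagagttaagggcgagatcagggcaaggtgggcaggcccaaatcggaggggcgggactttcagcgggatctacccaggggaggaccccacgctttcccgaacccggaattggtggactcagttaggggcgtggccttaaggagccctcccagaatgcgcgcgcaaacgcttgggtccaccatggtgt

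Ndufb4 held 3 NRF1 cores and 1 AAGGTCA, Ndufs6 held 1 NRF1 core and, in the bases after the start that are not printed, 1 YY1 core (AAGATGGC), and Ndufa1 and Ndufv3 held none of the strings searched. NRF1 is known as an activator of nuclear genes for respiratory chain proteins. Promoters of 24 of the 28 subunits were searched. Chromosome 18, which carries Ndufa2, was left out of the search for subunits and for all genes. Windows of 300 bases (250 before and 50 after the start) were searched on both strands for 4 strings, none of which contains another. The NRF1 core GCGCANGCG was in 5 of 24 subunit windows (20.8%), in 9.63% of windows of 17491 protein-coding genes and in 16.6% of those averaging 1 FPKM or more. The YY1 core AAGATGGC was in 5 of 24 (20.8%), in 3.57% of all and in 5.87% of those expressed. The ETS core CCGGAAG was in 3 of 24 (12.5%), in 12.9% of all and in 22.1% of those expressed, and AAGGTCA in 1 of 24 (4.17%), in 4.73% of all and in 3.31% of those expressed. A match is a string in a window and not a bound site.

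The other 12 subunits were higher with apoptotic cells by less than 2-fold. The nearest to the threshold was Ndufb7, a distal-arm subunit facing the intermembrane space, at 126 FPKM with apoptotic cells, 67.4 with LPS and 74.1 without treatment, a log2 ratio of 0.76 over untreated. Ndufa8, a cysteine-rich subunit on the same face of the proximal arm, had 116 FPKM with apoptotic cells, 82.7 with LPS and 68.2 without treatment, also 0.76. Ndufc2, a proximal-arm subunit, had 132 FPKM with apoptotic cells, 94.4 with LPS and 81.9 without treatment, a log2 ratio of 0.68. These are among the most abundant subunits in each library.

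At the other end, Ndufv3, a small subunit beside the NADH-oxidising flavoprotein, had 47.8 FPKM with apoptotic cells, 19.2 with LPS and 47.6 without treatment, a log2 ratio of 0.01 over untreated (SE about 0.26). Ndufa9, a nucleotide-binding subunit at the junction of the arms, had 37.1 FPKM with apoptotic cells and 32.4 FPKM without treatment (0.19) and was listed at 0 with LPS. Ndufa10, a kinase-like subunit of the proximal arm, had 42.3 FPKM with apoptotic cells, 37.4 with LPS and 36.7 without treatment (0.20). These differences are within about 2 counting errors of 0. Over the 15 subunits that error was about 0.16 to 0.33 on the log2 scale, and 9 of the 15 ratios were farther from 0 than 2 such errors. The same share of all genes was not computed.

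By module, the distal membrane arm had a median log2 ratio of 0.76 over 3 subunits, the proximal arm 0.68 over 5, the N module 0.51 over 5 and the Q module 0.28 over 2. Membrane-arm subunits had a median of 0.72 (range 0.20 to 1.23, n = 8) and matrix-arm subunits 0.38 (range 0.01 to 1.20, n = 7), so the ranges overlapped over most of their length.

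**Figure D2:**
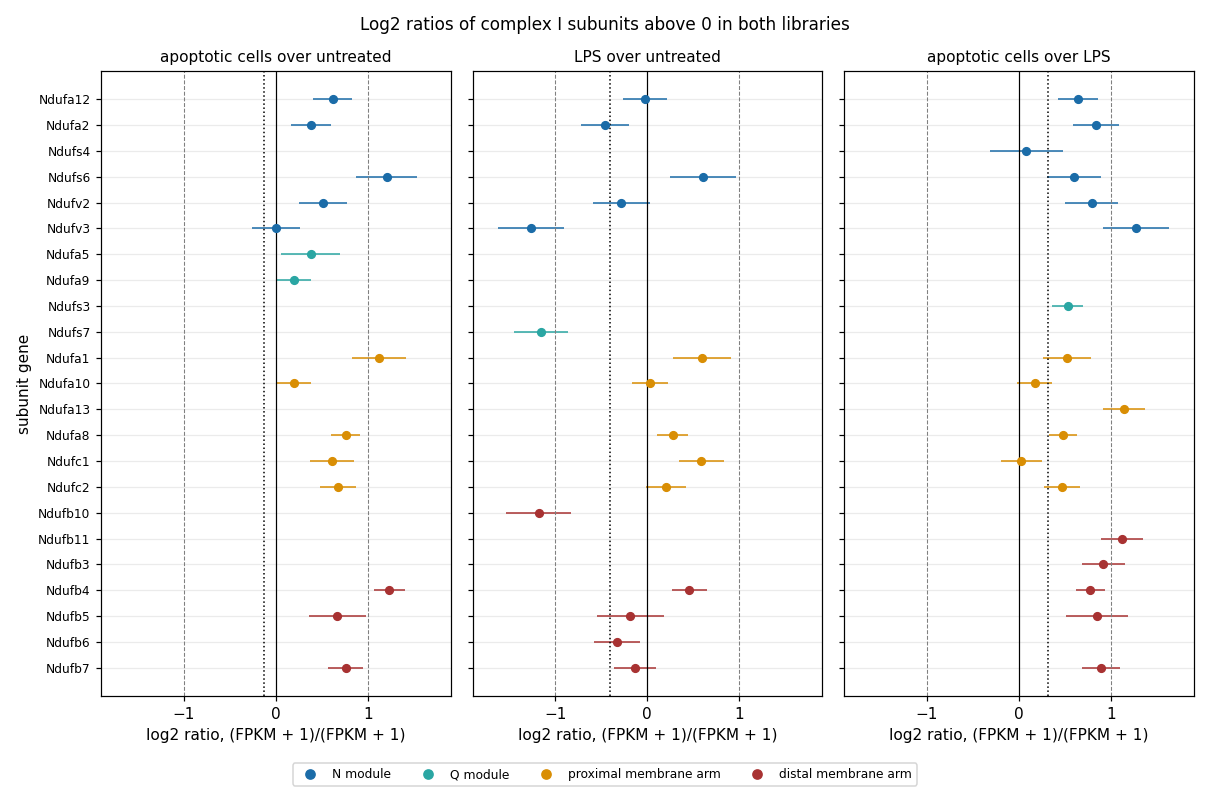
Log2 ratio of (FPKM + 1) for subunits above 0 in both libraries (all but 1), for apoptotic cells over untreated, LPS over untreated, and apoptotic cells over LPS; colours give the module and bars about 1 counting SE from the estimated depth. Dotted lines mark the median of all genes (-0.13, -0.40 and 0.32) and dashed lines a 2-fold difference. On the deposited scale all points lie above 0 in the left and right panels, and on both sides of 0 in the middle panel; with median-of-ratios scaling 16 of the 19 subunits are above 0 in the comparison on the right.

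The second comparison sets LPS, an inflammatory stimulus, against no treatment. Its ratios share the untreated library with the first comparison. Among 16 subunits above 0 in both libraries, 7 had a ratio above 0 and 9 below, where 33.5% and 66.5% of 3421 genes did. The median log2 ratio was -0.08 (95% interval over genes -0.46 to 0.45), against -0.40 for all genes. No subunit was at least 2-fold higher (8.51% of all genes were) and 3 were at least 2-fold lower (26.2% of all genes were). Of the 16 ratios, 5 were farther from 0 than about 2 counting errors and 11 were not.

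The 3 lower subunits were Ndufv3, Ndufb10 and Ndufs7. Ndufv3, given above, had a log2 ratio of -1.27 (SE about 0.36). Ndufb10, a cysteine-rich subunit of the distal arm, had 20.7 FPKM with LPS and 48.2 FPKM without treatment, a log2 ratio of -1.18 (SE about 0.35), and was listed at 0 with apoptotic cells. Ndufs7, the core subunit that carries the last iron-sulfur cluster before ubiquinone, had 18.1 FPKM with LPS and 41.5 FPKM without treatment (-1.16, SE about 0.30), and was likewise listed at 0 with apoptotic cells. These calls were lost with median-of-ratios scaling, under which 0 subunits were at least 2-fold lower and 4 at least 2-fold higher, and the median was 0.53. The median of all genes under that scaling was 0.12, and their shares past 2-fold were not computed.

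The highest ratios with LPS were those of Ndufs6 (0.60), Ndufa1 (0.60) and Ndufc1 (0.58). Ndufc1, a small subunit of the proximal arm, had 53.7 FPKM with apoptotic cells, 52.6 with LPS and 34.7 without treatment. It had the smallest log2 ratio between the treated libraries. Proximal-arm subunits had ratios above 0 in 5 of 5 cases (0.02 to 0.60), and N-module subunits below 0 in 4 of 5 (-1.27 to 0.60). On the distal arm, 4 of 5 were below 0 (-1.18 to 0.45), among them Ndufb6, with 62.3 FPKM with LPS and 78.5 FPKM without treatment and listed at 0 with apoptotic cells. With upper-quartile scaling 9 of the 16 ratios were above 0 and with median-of-ratios scaling 13 were, so the direction of the small ratios here depends on the scale.

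The third comparison sets apoptotic cells against LPS, both at 5 h, and shares its libraries with the first and the second comparison. On the deposited scale all 19 subunits above 0 in both libraries were higher with apoptotic cells, where 69.6% of 4599 genes were, and 0 were lower, where 30.4% were. The median log2 ratio was 0.78 (95% interval over genes 0.48 to 0.89), against 0.32 for all genes. Of the 19, 3 were at least 2-fold higher (15.7% of all genes were) and 0 at least 2-fold lower (5.54% of all genes were). Of the 19 ratios, 15 were farther from 0 than about 2 counting errors. That distance is taken from 0 and not from the median of all genes, and the same share of all genes was not computed. With median-of-ratios scaling 16 of 19 ratios were above 0, 0 reached 2-fold and the median was 0.37, and with upper-quartile scaling 17 of 19 were above 0. The median of all genes was -0.02 with the former and 0.21 with the latter, and their shares were not computed.

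Ndufv3 led this comparison (log2 ratio 1.27, SE about 0.36). Ndufa13, also called Grim19, a proximal-arm subunit also known for roles in cell death signalling, had 42.9 FPKM with apoptotic cells and 18.9 with LPS (1.14) and was listed at 0 without treatment. Ndufb11, an X-linked distal-arm subunit, had 63.1 FPKM with apoptotic cells and 28.5 with LPS (1.12) and was listed at 0 without treatment. At the low end were Ndufc1 (0.03), Ndufs4 (0.08) and Ndufa10 (0.17). Ndufs4, an N-module subunit whose loss gives mice a Leigh-like disease, had 14.2 FPKM with apoptotic cells and 13.4 with LPS and was listed at 0 without treatment. It was the lowest subunit above 0 in both treated libraries.

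Core subunits were poorly covered because of listed zeros, and Ndufs8 was not analysed here. Ndufv2, which carries an iron-sulfur cluster beside the flavin, is the 1 core subunit above 0 in all 3 libraries, at 40.4 FPKM with apoptotic cells, 22.9 with LPS and 28.1 without treatment. Ndufs3, of the Q module, had 73.3 FPKM with apoptotic cells and 50.4 with LPS. It was listed at 0 without treatment, and its log2 ratio of apoptotic cells over LPS was 0.53. Ndufs1, the largest core subunit with several iron-sulfur clusters, had 26.8 FPKM with apoptotic cells and was listed at 0 in the other libraries. Ndufv1, which binds flavin and oxidises NADH, had 23.7 FPKM with LPS and was listed at 0 in the other libraries. Neither gave a ratio.

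The remaining subunits had these values. Ndufa2, a thioredoxin-like N-module subunit, had 95.3 FPKM with apoptotic cells, 52.9 with LPS and 73.2 without treatment, and Ndufa12, on the same module, had 61.4 FPKM with apoptotic cells, 39.0 with LPS and 39.7 without treatment. Ndufb5, a distal-arm subunit, had 46.3 FPKM with apoptotic cells, 25.2 with LPS and 28.8 without treatment. Each of these was highest with apoptotic cells and lowest with LPS. Ndufb3, also of the distal arm, had 70.6 FPKM with apoptotic cells and 36.9 with LPS and was listed at 0 without treatment, while Ndufb9 had 59.5 FPKM with LPS and was listed at 0 in the other libraries. Ndufa5, of the Q module, had 42.1 FPKM with apoptotic cells and 32.2 FPKM without treatment and was listed at 0 with LPS. Ndufab1, the acyl carrier protein that also serves mitochondrial fatty acid synthesis, had 27.8 FPKM without treatment and was listed at 0 in both treated libraries.

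Levels of the subunits spread by up to 9.97-fold between the lowest and the highest above 0 with apoptotic cells, 7.32-fold with LPS and 3.08-fold without treatment. The lowest were Ndufs4 with apoptotic cells and with LPS, and Ndufs6, Ndufab1 and Ndufv2 without treatment. The narrower spread without treatment goes with the 9 zeros there, which include Ndufs4. The most abundant in the untreated library were Ndufc2, Ndufb6, Ndufb7, Ndufa2 and Ndufa8, between 81.9 and 68.2 FPKM, and neighbours in this order differ by less than their counting error of about 8.56% or more. Medians over subunits above 0 were 62.0 FPKM with apoptotic cells (n = 22), 39.4 FPKM with LPS (n = 24) and 41.5 FPKM without treatment (n = 19). The order of subunits was most alike between the treated libraries: Spearman's rho of the levels was 0.89 for apoptotic cells with LPS over 19 subunits, 0.75 for apoptotic cells with untreated over 15 and 0.59 for LPS with untreated over 16. These describe single libraries, over different sets of subunits, and the libraries share the transcript lengths by which the values were scaled.

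Where above 0, assembly factors of the Ndufaf series were lower in each library than every subunit above 0 there. Ndufaf3, which with Ndufaf4 helps to build the Q module, had 13.5 FPKM with apoptotic cells, 8.09 with LPS and 10.8 without treatment. Ndufaf2, a relative of Ndufa12 that acts on the N module late in assembly, had 7.55 FPKM with apoptotic cells, 2.88 with LPS and 6.44 without treatment. Both were highest with apoptotic cells and lowest with LPS, but Ndufaf2 rests on about 7.45 reads with apoptotic cells, 2.60 with LPS and 6.46 without treatment. Ndufaf1, part of the complex that builds the membrane arm, had 9.87 FPKM and Ndufaf4 had 4.35 FPKM with apoptotic cells, and both were listed at 0 in the other libraries.

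The log2 ratios of apoptotic cells over untreated were 0.31 for Ndufaf3 and 0.20 for Ndufaf2, and those of LPS over untreated were -0.37 for Ndufaf3 and -0.94 for Ndufaf2. Over LPS, the apoptotic-cell values gave 0.68 for Ndufaf3 and 1.14 for Ndufaf2, so Ndufaf2 was the 1 assembly factor of 2 past 2-fold there. Its counting error was about 1.04 (SE), about as large as the ratio. Another 3 assembly factors appear under older symbols, and all were above 0 in both treated libraries and listed at 0 without treatment. Of all genes above 0 in both treated libraries, 38.6% were listed at 0 without treatment, and these 3 are low genes. Ndufaf7 (2410091C18Rik), a methyltransferase, had 4.04 FPKM with apoptotic cells and 0.588 with LPS. Ndufaf5 (2310003L22Rik), which hydroxylates Ndufs7, had 2.16 FPKM with apoptotic cells and 2.06 with LPS, and Ndufaf6 (2310030N02Rik) had 2.66 with apoptotic cells and 2.33 with LPS.

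Of 12 listed assembly factors without the Nduf name, 7 were found under the symbols searched. With apoptotic cells over untreated, 3 could be compared, of which 0 reached 2-fold higher (12.4% of all genes did) and 1 was 2-fold lower or more (16.4% did). That was Nubpl, which delivers iron-sulfur clusters, at 1.02 FPKM with apoptotic cells and 3.14 without treatment (log2 ratio -1.03). Tmem70 (-0.21) and Chchd4 (0.13) differed by less. Tmem70 had 20.1 FPKM with apoptotic cells, 16.9 with LPS and 23.4 without treatment. Chchd4 had 21.2 FPKM with apoptotic cells, 28.7 with LPS and 19.4 without treatment. Both exceeded the subunit Ndufs4 in the treated libraries. With LPS over untreated, 0 of 4 reached 2-fold higher (8.51% of all genes did) and 2 were lower by that much (26.2% did), Nubpl (-1.02) and Ecsit, a partner of Ndufaf1, at 1.22 FPKM with LPS and 6.74 without treatment (-1.80). With apoptotic cells over LPS, 1 of 6 was past 2-fold (15.7% of all genes were), Tmem126b, another partner of Ndufaf1, at 26.2 FPKM with apoptotic cells and 6.96 with LPS (1.78), and 0 were 2-fold lower (5.54% were). These are few genes, and Nubpl and Ecsit are among the lowest of them. The mitochondrially encoded subunits were not analysed here.

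Ndufa4, named as a complex I subunit and now placed with complex IV, had 229 FPKM with apoptotic cells and 149 with LPS, a log2 ratio of 0.61, and was listed at 0 without treatment. Its level exceeded that of every complex I subunit in both treated libraries. Ndufa4l2, its relative known for induction by low oxygen, was listed at 0 in all 3 libraries.

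With apoptotic cells, most other respiratory chain genes that could be compared differed in the same direction as complex I subunits, on median by less. Of 30 nuclear genes of complexes II to V, 13 gave no ratio for apoptotic cells over untreated because of a listed 0. Among them, Atp5g3 was listed at 0 with apoptotic cells (434 FPKM with LPS, 257 without treatment). Atp5e was listed at 0 without treatment (505 FPKM with apoptotic cells, 367 with LPS). Nuclear subunits of complexes II to V had a median log2 ratio of 0.39 (95% interval over genes 0.15 to 0.59, n = 17) for apoptotic cells over untreated. Of the 17, 15 were above 0 (44.5% of all genes were). None was at least 2-fold higher (12.4% of all genes were) or at least 2-fold lower (16.4% were). Complex IV alone had a median of 0.62 over 4 genes, equal to that of complex I. For apoptotic cells over LPS the median of complexes II to V was 0.51 (0.36 to 0.68, n = 22), with 21 of 22 above 0, where 69.6% of all genes were. For LPS over untreated it was -0.07 (-0.28 to 0.23, n = 23), close to that of complex I subunits. The intervals of complex I and complexes II to V overlapped in all 3 comparisons, and the difference between these lists was not tested.

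Mitochondrial genes outside the respiratory chain had medians of 0.33 (-0.54 to 0.56, n = 14) for apoptotic cells over untreated, -0.34 (-0.64 to 0.04, n = 13) for LPS over untreated and 0.46 (0.27 to 0.67, n = 16) for apoptotic cells over LPS. Of those above 0 in all 3 libraries, 8 of 11 were highest with apoptotic cells, as were 14 of 17 genes of complexes II to V and 35.2% of all genes. Vdac1, the main pore of the outer membrane, had the highest ratio of this list with apoptotic cells over untreated (0.74). Of the 14 genes, 2 were at least 2-fold lower (16.4% of all genes were) and 0 at least 2-fold higher (12.4% were). The 2 were Polrmt, the mitochondrial RNA polymerase (-1.17), and Hspa9, a matrix chaperone (-1.10).

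Genes of similar level and transcript length were set beside the subunits. Subunit transcripts are short, between 419 and 1436 bases, and their mean levels above 0 lie between 13.8 and 103 FPKM. Genes outside the members within these bounds had a median log2 ratio of 0.19 (n = 406) for apoptotic cells over untreated, -0.05 (n = 433) for LPS over untreated and 0.38 (n = 480) for apoptotic cells over LPS. Of those above 0 in all 3 libraries with a mean level in these bounds, 50.8% of 331 were highest with apoptotic cells. For LPS over untreated these genes and the subunits (-0.08) had close medians. For the other comparisons the subunits lay higher, and the part of length and level in the result was not tested.

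**Figure D3:**
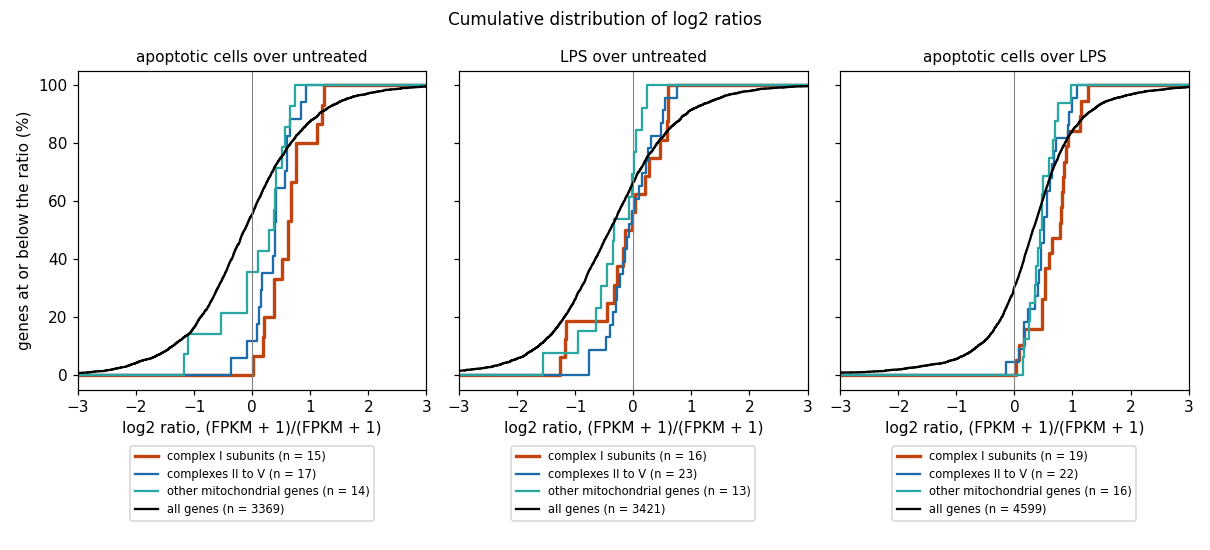
Cumulative share of genes (y axis, percent) at or below each log2 ratio of (FPKM + 1) (x axis) for complex I subunits, complexes II to V, mitochondrial genes outside the respiratory chain and all genes, in the 3 comparisons. Around its median the complex I line lies right of that of all genes: the medians are 0.62 for subunits and -0.13 for all genes for apoptotic cells over untreated, and 0.78 and 0.32 for apoptotic cells over LPS.

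Cell type markers differed between the libraries as well. Of 8 macrophage markers, 4 were found under the symbols searched. Their sums were 744 FPKM with apoptotic cells (4 of 4 above 0), 1.53 with LPS (2 of 4) and 360 without treatment (3 of 4). Csf1r, the receptor that macrophages need to survive, had 185 FPKM with apoptotic cells and 56.3 FPKM without treatment and was listed at 0 with LPS, as was Cd14, which had 555 FPKM with apoptotic cells and 303 FPKM without treatment. Summed thymocyte and T-cell markers were 85.9 FPKM with apoptotic cells (7 of 8 above 0), 1.76 with LPS (4 of 8) and 26.1 FPKM without treatment (2 of 8), and Lck was listed at 0 with apoptotic cells. Summed B-cell markers were 155 FPKM with apoptotic cells (6 of 8 above 0), 117 with LPS (7 of 8) and 86.1 without treatment (2 of 8). Neutrophil markers summed to 325 FPKM with apoptotic cells (7 of 7 above 0), 496 with LPS (4 of 7) and 118 without treatment (6 of 7). Mast cell markers summed to 13.8 FPKM with apoptotic cells (5 of 6 above 0), 10.2 with LPS (6 of 6) and 93.0 without treatment (5 of 6). Mesothelial and fibroblast markers summed to 1.81 FPKM with apoptotic cells (4 of 5 above 0), 1.13 with LPS (2 of 5) and 19.7 without treatment (5 of 5). Thymocyte, B-cell and macrophage marker sums were highest with apoptotic cells, but these sums take each listed 0 as a value, and 6 of 8 thymocyte and 6 of 8 B-cell markers were listed at 0 without treatment. The markers above 0 both with apoptotic cells and without treatment gave log2 ratios of -1.09 for Blnk and -2.02 for Cr2 among B-cell markers, and of -0.23 for Cd3g and -0.04 for Dntt among thymocyte markers. For apoptotic cells over LPS, Dntt had a log2 ratio of 3.60 and Rag1 of 4.65. The part of other cells or of engulfed RNA in the subunit values was not tested.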

How the data were processed

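RNA from 3 macrophage libraries was analysed from 1 deposited table each. The values were taken as FPKM: no label or header states the unit, but per the submitters' processing notes the tools included Cufflinks 2.2.1, which gives FPKM, Cuffdiff, TopHat2 2.1.0 and cutadapt, with the mm10 build. The sources used here do not give the authors' options, annotation or strand setting. With 1 library per group, no test was run.

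Ratios were log2((FPKM + 1)/(FPKM + 1)) for genes averaging 1 FPKM or more over the 3 libraries and above 0 in both compared. Lists were summarised by the median with a distribution-free binomial 95% interval over genes. Depth was estimated from the steps of low values of genes with 1 annotated transcript longer than 800 bases. Transcript lengths and copies (blastn 2.17.0) came from GENCODE M21, promoters from RefSeq. Python 3.11.15, pandas 2.3.3 and scipy 1.17.1 were used. The ratio and depth steps were run on simulated data. Those data held counting error only, so they do not test the scaling between libraries or the listed zeros. Alternatives were pseudocount, filter, scaling, fold threshold and handling of a listed 0. The members, lists and naming rule were chosen with earlier results of these data known: named genes were those past 2-fold, the 3 highest and lowest ratios, the extremes of level, core subunits, assembly factors and members with a listed 0. Values of the other members, genes under older symbols, the copies, length and level bounds and the printed promoters were added after the values were seen. Values of 1 subunit are not reported here singly; it is included in counts and medians.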

Additional observations from a re-analysis of the deposited data

How the results depend on the processing

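No paired analysis was possible because each group has 1 library, and for the same reason no replicate could be left out. Of the alternative values, 94 stayed near the main value and 26 did not. Subunit medians were held to their interval and counts to 1.5 times the main count. Assembly factor medians have no interval and were held to a fixed window around the main value. Both changes of the filter on mean level left the same members compared, so those values could not move, yet they are among the 94. The 94 is therefore not a measure of how stable the results are. Median-of-ratios scaling shifted the median log2 ratio of all genes to 0.06 for apoptotic cells over untreated, 0.12 for LPS over untreated and -0.02 for apoptotic cells over LPS. The subunit medians became 0.83 for apoptotic cells over untreated, 0.53 for LPS over untreated and 0.37 for apoptotic cells over LPS, which is 0.77, 0.41 and 0.39 above all genes. Under that scaling 4 of 16 subunits passed 2-fold upward and 0 downward for LPS over untreated. For apoptotic cells over LPS, 0 of 19 passed it upward. The shares of all genes past 2-fold under that scaling were not computed. The assembly factor medians were -0.12 for LPS over untreated and 0.56 for apoptotic cells over LPS, and a pseudocount of 5 gave 0.59 for apoptotic cells over LPS.

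With a listed 0 taken as a value, all 28 subunits were compared. Of these, 10 passed 2-fold upward and 4 downward for apoptotic cells over untreated, 8 upward and 6 downward for LPS over untreated, and 6 upward and 5 downward for apoptotic cells over LPS. This setting compares 7147 genes, and their shares past 2-fold were not computed. The shares given earlier do not apply to it. Assembly factor medians were then 1.36 for apoptotic cells over untreated, -0.19 for LPS over untreated and 1.78 for apoptotic cells over LPS. With genes above 0 in all 3 libraries alone, 1 of 13 subunits was at least 2-fold lower with LPS over untreated and 1 of 13 at least 2-fold higher with apoptotic cells over LPS, since fewer subunits were compared. The shares of all genes past 2-fold were not computed for this set. A threshold of 1.5-fold gave 9 of 15 subunits higher and 0 lower for apoptotic cells over untreated, where 746 of 3369 genes were higher and 1021 lower. For LPS over untreated it gave 2 of 16 higher and 3 lower, where 543 of 3421 genes were higher and 1461 lower. For apoptotic cells over LPS it gave 12 of 19 higher and 0 lower, where 1537 of 4599 genes were higher and 496 lower. A threshold of 4-fold gave 0 subunits in either direction in every comparison, and the share of all genes at 4-fold was not computed. The estimated depth gave ratios of subunits a counting error of about 0.15 to 0.40 on the log2 scale, which limits what can be told of differences near 0.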
